A study of Mus musculus with 8 samples.

Results

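The 10 genes described here are Fos, Fosb, Fosl1, Fosl2, Jun, Junb, Jund, Egr1, Atf3 and Ier3, chosen by name as transcripts of activator protein 1 (AP-1) and of the immediate early response. All 10 were among the 12528 genes listed, and all 10 passed the filter on low values that left 12494 genes for testing. AP-1 is a dimer of basic leucine zipper (bZIP) proteins, in which a FOS protein pairs with a JUN protein, JUN proteins pair with each other, or either pairs with relatives such as ATF3. FOS proteins cannot pair among themselves. Immediate early genes are transcribed within minutes of a stimulus such as serum, growth factors, stretch or stress, without new protein synthesis, and their mRNAs are short-lived. In fibroblasts they act downstream of integrins, the actin cytoskeleton and the MAP kinases (ERK, JNK and p38), and AP-1 in turn drives genes of proliferation and matrix remodelling.

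The RNA came from mouse embryonic fibroblasts (MEFs) of WT mice and of Cav1KO littermates, which lack caveolin-1, the main structural protein of caveolae. According to the study's methods the cells were immortalized, so each genotype is an established cell population and not a set of animals. Cells were seeded at low density on polyacrylamide hydrogels, and RNA was taken after 24 h. Growth medium held 10% serum, and the gels, coated with fibronectin, were stiff (55 kPa) or soft (200 Pa). The 4 groups, WT and Cav1KO cells each on stiff and on soft gels, held 2 libraries each, and nothing states that these were separate cultures, so p-values measure only the spread between these libraries, which may be technical. Levels were sampled at this single time, in serum.

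Values are TMM-normalized counts (CPM), a gene's reads relative to a library size adjusted so that a few abundant genes weigh less. The libraries held 17089836 to 19944952 recovered reads, at which a count of 0 would allow 3 reads, or 0.151 to 0.181 CPM by counting error only. Cav1 itself had 949.8 to 1157 CPM in the 4 WT libraries and 0.0523 to 0.411 CPM in the 4 Cav1KO libraries. Of 10 fibroblast markers, 9 were listed, with a summed level of 8198 to 8223 CPM in WT stiff, 10546 to 10729 in WT soft, 4057 to 4804 in Cav1KO stiff and 10292 to 10462 in Cav1KO soft libraries. Thy1 was not listed. Of 6 macrophage markers only Cd68 was listed, at 0.552 to 4.55 CPM over all libraries, and of 6 epithelial, 6 endothelial and 6 skeletal muscle markers none was listed. The fibroblast sum was thus lowest in the Cav1KO stiff libraries, and its part in the results was not tested. In bulk RNA, fewer cells expressing a gene and less RNA per cell cannot be told apart.

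In both genotypes most of these genes had lower levels on stiff gels. In WT cells 7 of 10 fell (Fos, Fosb, Fosl2, Jun, Junb, Jund and Atf3), while 26.3% of all genes tested fell. A single member, Fosl1, rose in WT cells, while 22.1% of all genes rose. In Cav1KO cells 7 of 10 fell (Fos, Fosb, Fosl2, Jun, Junb, Egr1 and Atf3), against 28.2% of all genes, and 2 rose (Fosl1 and Ier3), against 27.9%. The median log2 fold change of stiff over soft was -0.45 in WT and -0.49 in Cav1KO cells, and over all genes it was -0.02 in both. A gene was called when limma's test on log2(CPM + 1) gave a Benjamini-Hochberg adjusted p, taken over all genes tested, below 0.05. The pseudocount of 1 CPM in log2(CPM + 1) understates the change of genes with few CPM.

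**Figure D1:**
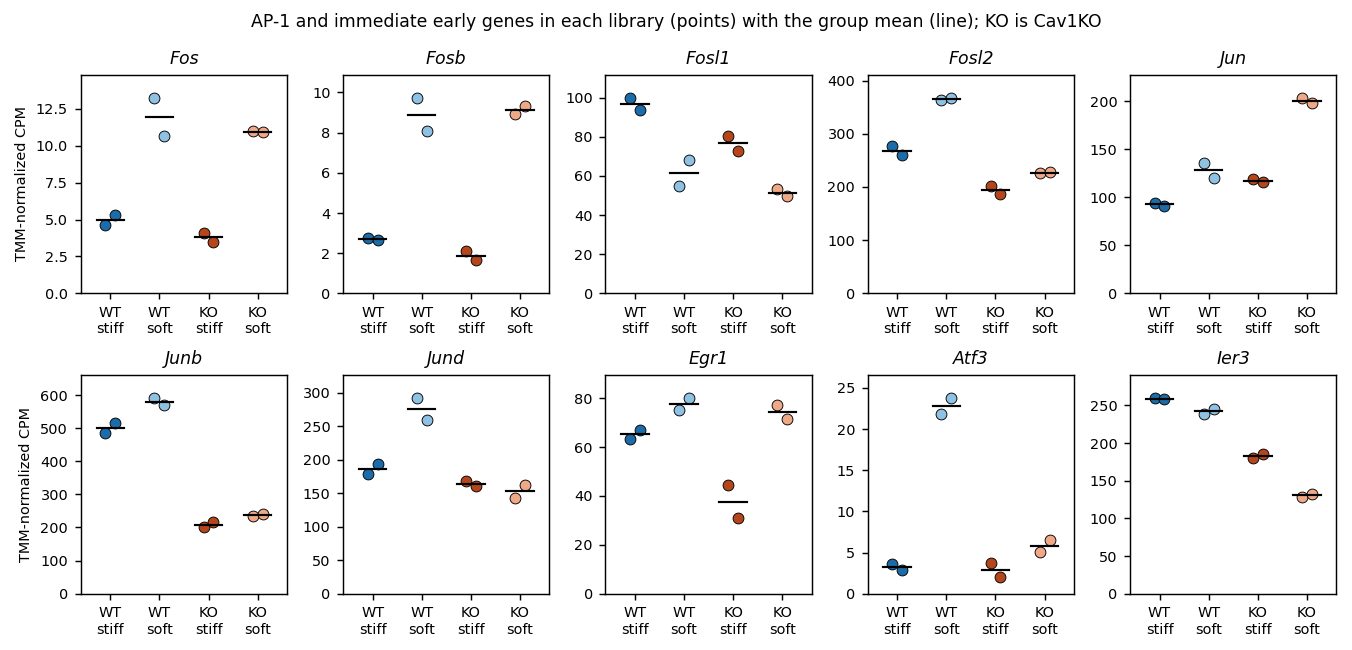
TMM-normalized CPM (vertical axes, from 0, with a scale of its own for each gene) of the 10 genes in the 8 libraries. Points are libraries, lines are means of 2, and KO is Cav1KO. Fos, Fosb and Jun lie higher on soft than on stiff gels in both genotypes, Fosl1 lies lower on soft gels, and the Atf3 libraries of WT soft (21.9 and 23.8 CPM) stand above those of every other group.

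Fos and Fosb, the FOS family members with a strong transactivation domain, were scarce. Fos (ENSMUSG00000021250, chromosome 12 from 85473890 to 85477273 on the plus strand, GRCm38 in the GENCODE M21 annotation) had 4.62 and 5.30 CPM in WT stiff and 13.2 and 10.6 CPM in WT soft libraries. The Cav1KO libraries held 4.06 and 3.51 CPM on stiff and 11.0 and 10.9 CPM on soft gels. Every soft library lay above every stiff library. Soft over stiff, mean CPM was 2.41-fold higher in WT and 2.89-fold higher in Cav1KO cells (stiff minus soft on the log2 scale -1.11, SE 0.15, adjusted p = 0.000483, and -1.32, SE 0.15, adjusted p = 0.000140). The order of levels was WT soft and Cav1KO soft, which overlapped, then WT stiff, then Cav1KO stiff, and the last 2 did not overlap but their difference did not pass the test (-0.32, SE 0.15, adjusted p = 0.105). These values rest on 64 to 219 reads per library.

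Fosb (ENSMUSG00000003545, chromosome 7 from 19302696 to 19310051, minus strand) followed the same order at a lower level. It had 2.76 and 2.68 CPM in WT stiff, 9.73 and 8.06 in WT soft, 2.12 and 1.64 in Cav1KO stiff and 8.94 and 9.31 in Cav1KO soft libraries, from 30 to 181 reads. Again no stiff library reached a soft one. Mean CPM was 3.27-fold higher on soft gels in WT cells (-1.41, SE 0.15, adjusted p = 0.000184) and 4.85-fold higher in Cav1KO cells (-1.82, SE 0.15, adjusted p = 3.4e-05). The genotypes overlapped on soft gels (0.04, SE 0.15, adjusted p = 0.846), and on stiff gels the lower Cav1KO values missed the threshold (-0.37, SE 0.15, adjusted p = 0.0654), but passed it without Cav1KO stiff replicate 1 (-0.49, adjusted p = 0.0452).

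Fosl1 and Fosl2 encode FRA-1 and FRA-2, FOS family proteins without the C-terminal transactivation domain that are usually expressed longer after a stimulus. Fosl1 (ENSMUSG00000024912, chromosome 19 from 5447547 to 5455946, plus strand) had 99.8 and 93.9 CPM in WT stiff and 54.9 and 68.2 CPM in WT soft libraries. The Cav1KO libraries held 80.5 and 72.9 CPM on stiff and 53.2 and 49.5 CPM on soft gels. It was the only FOS family member higher on stiff gels, 1.57-fold in WT cells (0.65, SE 0.11, adjusted p = 0.00163) and 1.49-fold in Cav1KO cells (0.57, SE 0.11, adjusted p = 0.00256). Cav1KO stiff lay below WT stiff (-0.33, SE 0.11, adjusted p = 0.0333), a call kept in 11 of 18 alternatives and lost without either WT stiff library, either Cav1KO soft library or Cav1KO stiff replicate 2 (-0.26 to -0.38, adjusted p up to 0.148). On soft gels the genotype difference did not pass (-0.25, SE 0.11, adjusted p = 0.0878), although it did without WT soft replicate 1 (-0.40, adjusted p = 0.0197). The library kit did not mark strand, and 57.2% of Fosl1's exon bases also lie in Ccdc85b on the other strand, so its level is uncertain. Ccdc85b, at 31.1 to 48.0 CPM, did not share the direction (stiff minus soft -0.24 in WT, adjusted p = 0.0462, and -0.02 in Cav1KO cells, adjusted p = 0.873).

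Fosl2 (ENSMUSG00000029135, chromosome 5 from 32135801 to 32157842, plus strand) ran opposite to Fosl1. It had 276.2 and 260.8 CPM in WT stiff, 363.2 and 367.2 in WT soft, 202.6 and 187.5 in Cav1KO stiff and 225.8 and 228.1 in Cav1KO soft libraries. The 4 groups did not overlap, with WT soft highest and Cav1KO stiff lowest. Soft over stiff was 1.36-fold in WT cells (-0.44, SE 0.07, adjusted p = 0.00107) and 1.16-fold in Cav1KO cells (-0.22, SE 0.07, adjusted p = 0.0252). The Cav1KO call was kept in 13 of 18 alternatives and lost without Cav1KO stiff replicate 2 (-0.16, adjusted p = 0.126), without Cav1KO soft replicate 1 (-0.23, adjusted p = 0.108) or without Cav1KO soft replicate 2 (-0.21, adjusted p = 0.126). Cav1KO cells had less Fosl2 on both gels (-0.46 on stiff, SE 0.07, adjusted p = 0.000697, and -0.68 on soft, SE 0.07, adjusted p = 6.49e-05).

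Levels of different genes are compared per kilobase of the longest annotated transcript. On that scale Fosl1 and Fosl2 made up nearly all FOS family mRNA, and which of them led depended on the substrate. Fosl1 accounted for 54.3% and 53.9% of the family in the WT stiff libraries and for 31.4% and 36.6% in WT soft. In Cav1KO cells it was 56.3% and 56.0% on stiff and 40.4% and 38.5% on soft gels. Fosl2 took most of the remainder, 42.7% to 42.8% in WT stiff, 56.2% to 59.2% in WT soft, 40.4% to 41.0% in Cav1KO stiff and 48.9% to 50.5% in Cav1KO soft libraries. Fos took 2.22% to 2.69% on stiff and 5.05% to 7.49% on soft gels over both genotypes. The family total per kilobase was 93.5 to 99.9 in WT libraries and 69.1 to 76.7 in Cav1KO libraries. No test was run on these shares, which carry the uncertainty of Fosl1 given above. They also depend on the transcript lengths taken, 1864 nt for Fosl1 and 6537 nt for Fosl2. In CPM without that division Fosl2 exceeded Fosl1 in every library (ratio of Fosl1 to Fosl2 0.151 to 0.397).

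**Figure D2:**
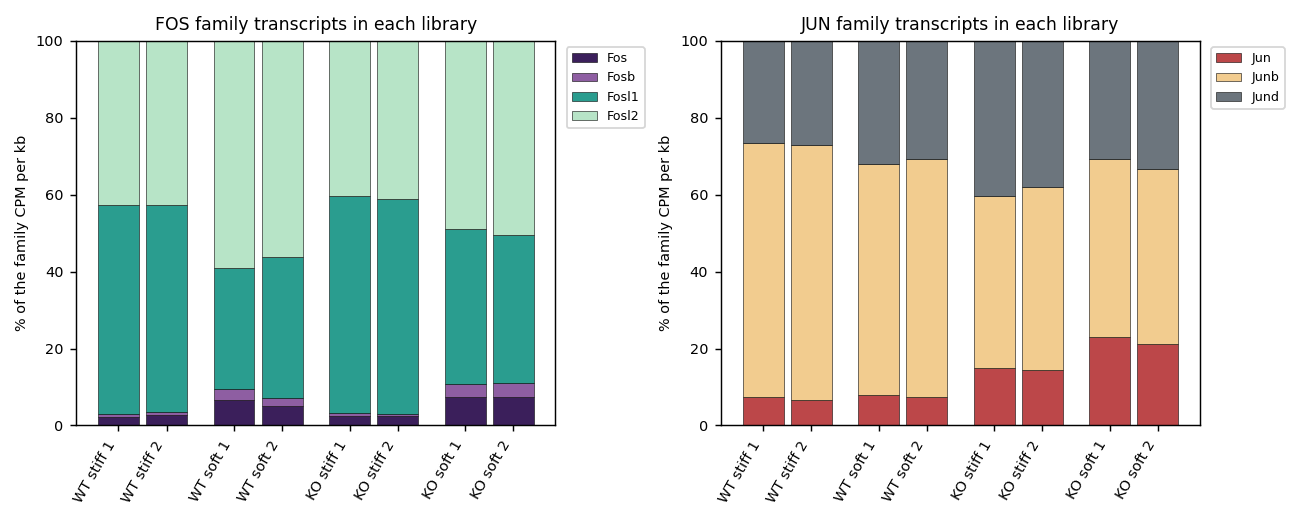
Share of each gene in the summed CPM per kilobase of its family (percent, vertical axis) in each of the 8 libraries, with the FOS family on the left and the JUN family on the right. On this per-kilobase scale Fosl1 leads on stiff gels and Fosl2 on soft gels. Jun takes 6.63% to 7.83% of the JUN family in WT libraries and 14.4% to 22.9% in Cav1KO libraries.

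In the JUN family Jun and Junb differed between the genotypes on both gels, in opposite directions. Jun (ENSMUSG00000052684, chromosome 4 from 95049034 to 95052222, minus strand), the JUN protein with the strongest transactivation and a target of JNK, was the only member called higher in Cav1KO cells. It had 94.5 and 90.8 CPM in WT stiff, 135.9 and 120.4 in WT soft, 119.1 and 115.7 in Cav1KO stiff and 203.5 and 198.2 in Cav1KO soft libraries. Cav1KO soft stood highest, WT soft and Cav1KO stiff were near each other without overlapping, and WT stiff was lowest. Cav1KO over WT was 1.27-fold on stiff (0.34, SE 0.08, adjusted p = 0.00630) and 1.57-fold on soft gels (0.65, SE 0.08, adjusted p = 0.000172). Soft over stiff was 1.38-fold in WT (-0.46, SE 0.08, adjusted p = 0.00153) and 1.71-fold in Cav1KO cells (-0.77, SE 0.08, adjusted p = 8.23e-05).

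Junb (ENSMUSG00000052837, chromosome 8 from 84974484 to 84978718, minus strand), a weaker activator that can restrain Jun, moved the other way with genotype. It had 484.2 and 514.3 CPM in WT stiff, 590.5 and 569.5 in WT soft, 201.3 and 216.7 in Cav1KO stiff and 234.3 and 242.1 in Cav1KO soft libraries. Every WT library had more than every Cav1KO library. WT over Cav1KO was 2.39-fold on stiff (Cav1KO minus WT -1.25, SE 0.07, adjusted p = 2.39e-06) and 2.44-fold on soft gels (-1.28, SE 0.07, adjusted p = 1.94e-06). The effect of the substrate was small, with soft over stiff at 1.16-fold in WT (-0.22, SE 0.07, adjusted p = 0.0343) and 1.14-fold in Cav1KO cells (-0.19, SE 0.07, adjusted p = 0.04999). The Cav1KO call stood at the threshold and was kept in 5 of 18 alternatives, and the WT call in 10 of 18. The Cav1KO call was lost without any 1 of 7 libraries (log2 change -0.14 to -0.21) and the WT call without WT stiff replicate 1, either WT soft or either Cav1KO soft library (-0.17 to -0.24).

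Jund (ENSMUSG00000071076, chromosome 8 from 70698949 to 70700616, plus strand), the least inducible JUN gene, responded to the substrate in WT cells. It had 179 and 194.3 CPM in WT stiff and 291.7 and 260 CPM in WT soft libraries, and 167.6 and 160.2 CPM in Cav1KO stiff and 143 and 162.7 CPM in Cav1KO soft libraries. The WT soft libraries were alone at the top, and the Cav1KO libraries of both gels overlapped. Soft over stiff was 1.48-fold in WT cells (-0.56, SE 0.09, adjusted p = 0.00135), and in Cav1KO cells the change did not pass (0.10, SE 0.09, adjusted p = 0.370) and turned to -0.06 under quantile normalization. Cav1KO cells had less Jund on soft gels (-0.85, SE 0.09, adjusted p = 9.41e-05), and on stiff gels the difference did not pass (-0.19, SE 0.09, adjusted p = 0.121). Of Jund's exon bases 52.6% are shared with Gm11175 on the other strand. Gm11175, at 34.6 to 65.9 CPM, had log2 changes near those of Jund (stiff minus soft -0.57 in WT and 0.09 in Cav1KO cells). Its Cav1KO minus WT changes were -0.07 on stiff and -0.72 on soft gels. Without strand the reads of the pair cannot be told apart, for the stiffness and the genotype effects alike. Junb and Jun share less with antisense neighbours, 7.52% of exon bases with Prdx2 and 7.28% with Junos. Prdx2, at 681.5 to 1183 CPM, was lower in Cav1KO cells, as Junb was (Cav1KO minus WT -0.43 on stiff gels, adjusted p = 0.00457, and -0.70 on soft gels, adjusted p = 0.000284). Its part in the Junb values was not tested. Junos had 1.61 to 2.54 CPM.

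These opposite shifts changed the proportions within the JUN family. The CPM ratio of Jun to Junb was 0.195 and 0.177 in WT stiff, 0.230 and 0.211 in WT soft, 0.592 and 0.534 in Cav1KO stiff and 0.869 and 0.819 in Cav1KO soft libraries. It was higher in every Cav1KO than in every WT library, and within each genotype higher on soft gels. Per kilobase, Junb took 66.2% of the family in both WT stiff libraries, 60.0% and 61.9% in WT soft, and 44.7% to 47.5% across the 4 Cav1KO libraries. The family total per kilobase was 404.6 to 543.9 in WT and 249.1 to 293.5 in Cav1KO libraries. JUN family mRNA thus exceeded FOS family mRNA in every library on this scale. The shares and totals depend on the transcript lengths taken. They also carry the uncertainty of Jund and Fosl1 from the antisense overlaps given above.

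Atf3 (ENSMUSG00000026628, chromosome 1 from 191170296 to 191218039, minus strand), a stress-induced bZIP factor that can bind with JUN proteins and often represses, had the largest change of the 10. It had 3.62 and 2.85 CPM in WT stiff libraries and 21.9 and 23.8 CPM in WT soft libraries. The Cav1KO libraries held 3.71 and 2.03 CPM on stiff and 5.02 and 6.48 CPM on soft gels, and the reads ranged from 37 to 442. WT soft stood apart from the other 3 groups, and the stiff libraries of both genotypes overlapped. Soft over stiff was 7.06-fold in WT (-2.50, SE 0.22, adjusted p = 8.62e-05) and 2.01-fold in Cav1KO cells (-0.83, SE 0.22, adjusted p = 0.0119). The Cav1KO call was lost without Cav1KO stiff replicate 2 (-0.51, adjusted p = 0.0639), without Cav1KO soft replicate 2 (-0.67, adjusted p = 0.0864) and under quantile normalization (-0.53, adjusted p = 0.0529). WT over Cav1KO was 3.97-fold on soft gels (Cav1KO minus WT -1.83, SE 0.22, adjusted p = 0.000183), and on stiff gels no difference was detectable (-0.16, SE 0.22, adjusted p = 0.578), with the sign turning without Cav1KO stiff replicate 2 (0.16).

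Egr1 (ENSMUSG00000038418), a zinc finger factor induced through serum response factor and ERK, was low in a single group. It had 63.3 and 67.2 CPM in WT stiff, 75.1 and 80.0 in WT soft, 44.5 and 30.9 in Cav1KO stiff and 77.1 and 71.5 in Cav1KO soft libraries. The soft libraries of both genotypes overlapped, and the Cav1KO stiff libraries lay below all others but far from each other. In Cav1KO cells soft over stiff was 1.97-fold (-0.98, SE 0.15, adjusted p = 0.000659), and in WT cells the change did not pass (-0.25, SE 0.15, adjusted p = 0.202). The WT change passed when either Cav1KO stiff library was left out, which lowers the shared estimate of spread (SE 0.08 in both, adjusted p = 0.0316 without replicate 1 and 0.0312 without replicate 2). Cav1KO cells had less Egr1 on stiff gels (-0.80, SE 0.15, adjusted p = 0.00215), whereas on soft gels the difference was -0.06 (SE 0.15, adjusted p = 0.745).

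Ier3 (ENSMUSG00000003541, chromosome 17 from 35821684 to 35822923, plus strand), an early response gene that modulates cell survival and ERK signalling, changed mainly with genotype. It had 259.4 and 258.7 CPM in WT stiff, 239.1 and 244.8 in WT soft, 180.6 and 185 in Cav1KO stiff and 129 and 132.8 in Cav1KO soft libraries. No groups overlapped, and both WT groups lay above both Cav1KO groups. WT over Cav1KO was 1.42-fold on stiff (Cav1KO minus WT -0.50, SE 0.06, adjusted p = 0.000239) and 1.85-fold on soft gels (-0.88, SE 0.06, adjusted p = 8.18e-06). Ier3 was higher on stiff gels in Cav1KO cells (0.48, SE 0.06, adjusted p = 0.000310), and the WT change did not pass (0.10, SE 0.06, adjusted p = 0.226).

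**Figure D3:**
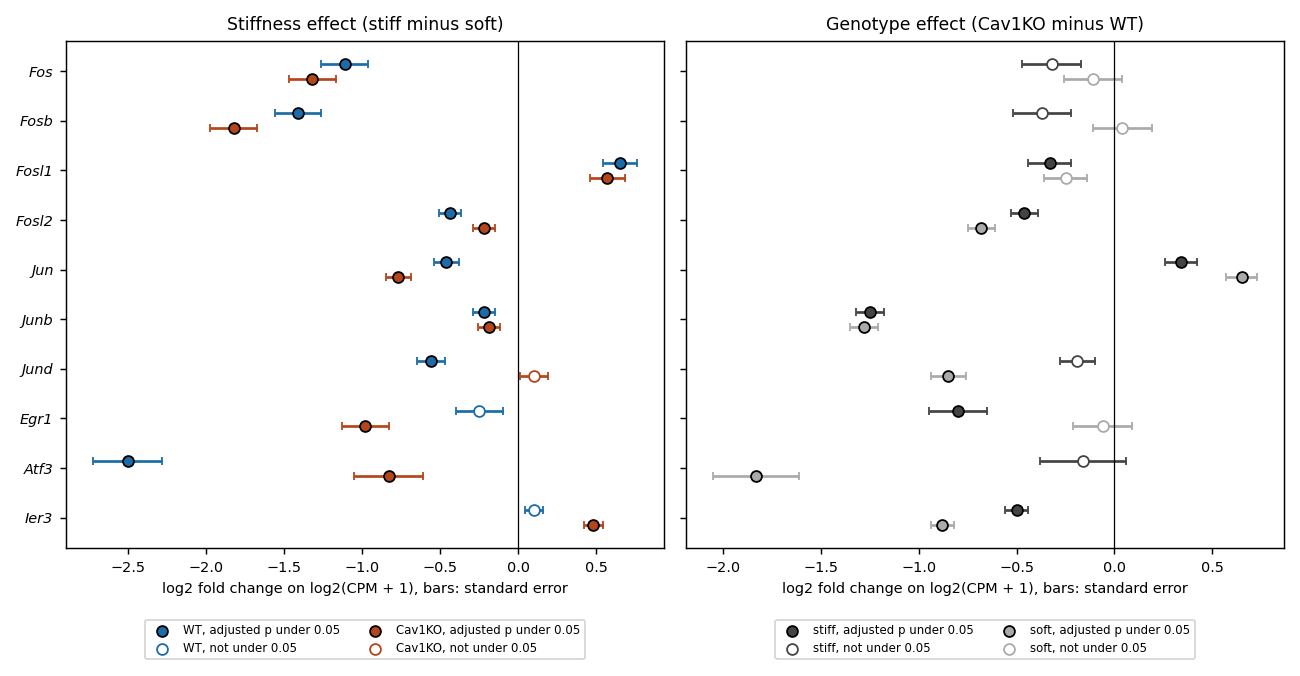
Log2 fold changes on log2(CPM + 1) with standard errors (horizontal axes) for the 10 genes, with stiff minus soft in each genotype on the left and Cav1KO minus WT on each substrate on the right. Filled points have an adjusted p under 0.05. Atf3 in WT cells lies farthest left at -2.50 and Junb lies near -1.25 on both substrates, while Jun is the only gene right of 0 with filled points on the right panel.

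The genotype comparisons count as follows. On stiff gels Cav1KO cells had less of 5 members (Fosl1, Fosl2, Junb, Egr1 and Ier3), when 26.6% of all genes were lower, and more of 1 (Jun), when 25% were higher. On soft gels they had less of 5 (Fosl2, Junb, Jund, Atf3 and Ier3), when 29.9% of all genes were lower, and more of 1 (Jun), when 24.1% were higher. Lower on both gels were 3 members (Fosl2, Junb and Ier3), or 30% of the 10, against 18.9% of all genes. Lower on stiff gels in both genotypes were 6 members, or 60%, against 17% of all genes. Among these 6, the Cav1KO calls of Junb, Fosl2 and Atf3 were kept in 5, 13 and 15 of 18 alternatives. The WT call of Junb was kept in 10 of 18. Fosl1 was higher in both genotypes, 1 of 10 against 16.4% of all genes. The group means of the stiff and the soft comparison share no library, nor do those of the WT and the Cav1KO comparison. The p-values of all comparisons rest on a shared estimate of spread from all libraries, so the calls are not independent.

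Whether the stiffness effect differed between genotypes was tested directly, as the WT effect minus the Cav1KO effect. A difference below 0 passed the test for 3 members (Jund, Atf3 and Ier3), while 6% of all genes passed in that direction. Atf3 fell more steeply on stiff gels in WT cells (difference -1.67, SE 0.31, adjusted p = 0.0221), the stiff-gel change of Jund lay lower in WT than in Cav1KO cells (-0.66, SE 0.13, adjusted p = 0.0249), and for Ier3 the rise on stiff gels was larger in Cav1KO cells (-0.38, SE 0.09, adjusted p = 0.0373). All 3 calls depended on single libraries. Without WT stiff replicate 1 the differences were -1.80 for Atf3 (adjusted p = 0.0672), -0.60 for Jund (0.0987) and -0.38 for Ier3 (0.119). Without WT soft replicate 1 they were -1.72 (0.0770), -0.58 (0.0884) and -0.40 (0.0969). Each was also lost without either Cav1KO soft library, Atf3 and Ier3 without WT soft replicate 2, and Ier3 without WT stiff replicate 2 or Cav1KO stiff replicate 2, with differences from -1.99 to -1.35 for Atf3, -0.76 to -0.57 for Jund and -0.40 to -0.36 for Ier3 over all single libraries left out.

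No member passed limma's test with a difference above 0, while 4.47% of all genes did. At an unadjusted p under 0.05 there were 2, Egr1 (0.74, SE 0.21, adjusted p = 0.0554) and Jun (0.31, SE 0.11, adjusted p = 0.0917). On the recovered reads edgeR called 0 and DESeq2 called 1, Egr1 (adjusted p = 0.0106). Egr1's difference rose to 0.99 without Cav1KO stiff replicate 1 (adjusted p = 0.00427) and fell to 0.48 without Cav1KO stiff replicate 2. For Fos (0.21, adjusted p = 0.499), Fosb (0.41, adjusted p = 0.198), Fosl1 (0.08, adjusted p = 0.725), Fosl2 (-0.22, adjusted p = 0.143) and Junb (-0.03, adjusted p = 0.864) no difference between the genotypes was detectable with 2 libraries a group.

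Promoter sequence is shown for the 5 members with a cAMP response element (CRE) core or the AP-1-like site of Jun near their start, the elements through which CREB, ATF and AP-1 proteins bind such promoters. The windows are RefSeq's on GRCm38.p6, and 8 members were examined from 250 bases before to 50 after the start. Egr1 and Fosl1 were not among the 8. The 150 bases before the start are given 5′ to 3′ on the gene's strand. Capitals mark the core TGACG on either strand and, in Jun, TGACATCA. The stretches lie at chr12:85473740-85473889 (plus strand) for Fos, chr7:19310046-19310195 (minus) for Fosb, chr4:95052223-95052372 (minus) for Jun, chr8:84978749-84978898 (minus) for Junb and chr1:191183334-191183483 (minus) for Atf3, where the RefSeq start is an inner start of the annotated gene.
Fos: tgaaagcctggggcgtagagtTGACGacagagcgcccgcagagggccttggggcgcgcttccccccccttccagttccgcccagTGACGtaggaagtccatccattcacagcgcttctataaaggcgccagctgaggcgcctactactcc
Fosb: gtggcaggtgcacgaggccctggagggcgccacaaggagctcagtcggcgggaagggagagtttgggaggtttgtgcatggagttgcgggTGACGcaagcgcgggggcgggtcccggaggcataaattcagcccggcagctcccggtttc
Jun: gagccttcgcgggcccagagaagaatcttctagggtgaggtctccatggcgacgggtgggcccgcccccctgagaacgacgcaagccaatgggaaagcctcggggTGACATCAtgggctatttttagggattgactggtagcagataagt
Junb: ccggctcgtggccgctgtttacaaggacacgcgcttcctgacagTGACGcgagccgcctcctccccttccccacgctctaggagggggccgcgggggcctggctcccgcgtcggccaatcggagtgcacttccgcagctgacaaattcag
Atf3: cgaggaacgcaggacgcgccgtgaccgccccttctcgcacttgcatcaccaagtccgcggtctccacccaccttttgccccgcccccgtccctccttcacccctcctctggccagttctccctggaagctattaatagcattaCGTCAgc

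The core TGACG was found in 4 of the 8 windows, Fos (first base at -129 and at -66), Fosb (-60), Junb (-106) and Atf3 (-7, on the reverse strand), and in 20.8% of the 32851 windows of all genes. The full CRE, TGACGTCA, which contains the core, was in none of the 8 and in 1.79% of all windows. TGACATCA was searched for as the AP-1-like site of Jun, so its presence in Jun, at -45, gives its position only. It was in 3.62% of all windows. The AP-1 site TGACTCA was in none of the 8 and in 5.2% of all windows. TATAAA occurred in Fos (-33) and Junb (1, the RefSeq start itself) and in 13.6% of windows. Positions count from the RefSeq start, which for Junb lies upstream of the annotated gene's 5′ end at 84978718 (minus strand). The GC box GGGCGG occurred in 6 of 8 (not in Junb or Jund) and in 35.7%. Jund's window, chr8:70697489-70697788, ends before the annotated gene begins at 70698949, so these counts do not cover the annotated start of Jund. Fosl2's window, chr5:32136222-32136521, lies wholly inside its annotated gene. The CArG box of serum response factor by its strict pattern (1.63% of windows) and the TEAD site GGAATG (14.7%) were in none of the 8. Sites outside these windows, and any in Egr1 and Fosl1, were not searched for. Both strands were searched. A match describes these letters and not a bound factor.

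Across the 8 libraries, the log2(CPM + 1) values of Fos ran most closely with Rnf185, Ifit3 and Isg15 (Pearson r = 0.998 each, among 10063 genes with a mean of at least 5 CPM). Isg15, an interferon-stimulated ubiquitin-like protein, had 29.9 to 45.2 CPM in WT stiff, 179.5 to 280.6 in WT soft, 22.4 to 24.2 in Cav1KO stiff and 181.3 to 185.5 in Cav1KO soft libraries. Ifit3, another interferon-stimulated gene, had 4.49 to 19.7 CPM on stiff and 166.6 to 297.2 CPM on soft gels over both genotypes. The values of Fosl1 ran most closely with Wdr76 and Dcbld2 (r = 0.995 each) and Xpo1 (r = 0.994), the last a nuclear export receptor at 268.4 to 287.4 CPM in WT stiff and 126.4 to 127.6 CPM in Cav1KO soft libraries. These correlations describe 8 libraries in 4 groups and carry no test.

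Of 49 other immediate early genes, more were lower than higher in Cav1KO cells. On stiff gels 29 were lower and 7 higher, beside 26.6% and 25% of all genes, and on soft gels 35 were lower and 8 higher, beside 29.9% and 24.1%, with medians of -0.62 and -0.79 beside -0.03 for all genes on each gel. Lower on both gels were 27 of the 49, or 55.1%, against 18.9% of all genes, and higher on both were 5, or 10.2%, against 15.7%. The growth factors Hbegf and Ereg were among the genes lower in both. Ereg had 130.7 to 135.3 CPM in WT stiff, 64.7 to 79.1 in WT soft, 24.9 to 28.2 in Cav1KO stiff and 10.1 to 13.2 in Cav1KO soft libraries. Egr3, a relative of Egr1, had 16.4 to 24.5 CPM in WT and 4.88 to 7.37 CPM in Cav1KO libraries.

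**Figure D4:**
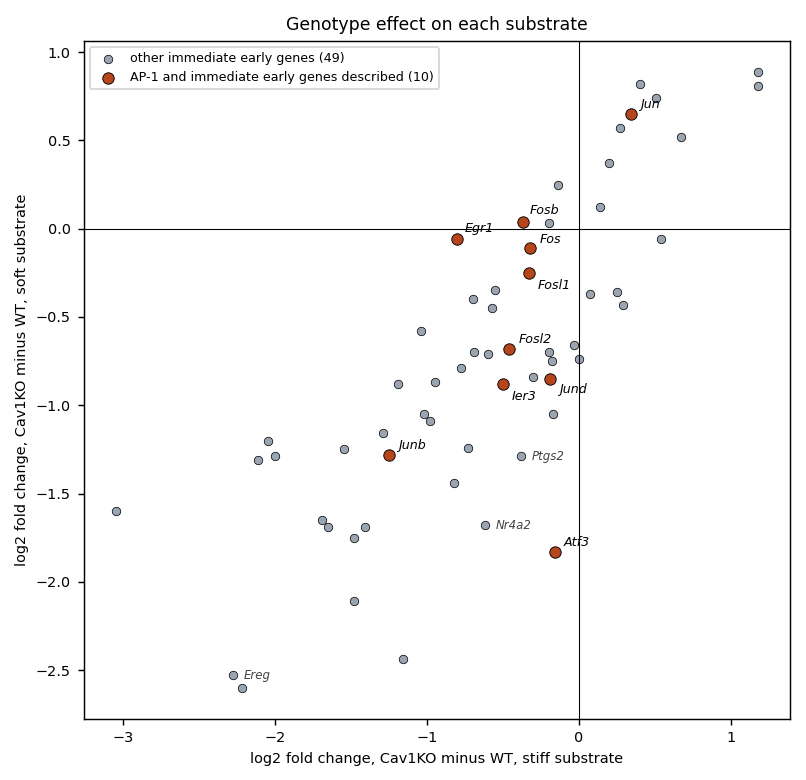
Log2 fold change of Cav1KO over WT on the stiff (horizontal axis) and on the soft substrate (vertical axis) for the 10 members (large points) and 49 other immediate early genes (small points). Most points lie left of and below 0, with Ereg far to the lower left, Junb near -1.25 on both axes and Jun in the upper right.

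With stiffness these 49 genes moved in both directions, 13 higher and 19 lower in WT and 17 higher and 14 lower in Cav1KO cells, with medians of -0.07 and -0.03. The shares over all genes were 22.1% higher and 26.3% lower in WT and 27.9% and 28.2% in Cav1KO cells. Hbegf rose on stiff gels in WT (1.22, SE 0.14, adjusted p = 0.000263) and Cav1KO cells (1.18, SE 0.14, adjusted p = 0.000203), as did Ereg (0.89, SE 0.14, adjusted p = 0.00121, and 1.13, SE 0.14, adjusted p = 0.000251). Gem, a small GTPase, fell on stiff gels in WT (-1.29) and Cav1KO cells (-1.01). The difference between genotypes passed for 12 of the 49, 4 above and 8 below 0, beside 4.47% above and 6% below 0 over all genes. The nuclear receptor Nr4a2 was below 0 (-1.06, SE 0.21, adjusted p = 0.0242), with 3.71 to 4.57 CPM in WT stiff, 10.9 to 11.3 in WT soft, 2.25 to 2.41 in Cav1KO stiff and 2.57 to 2.98 in Cav1KO soft libraries. Those levels resemble the Atf3 pattern, with WT soft above the other 3 groups. Ptgs2, the inducible cyclooxygenase, was also below 0 (-0.90, SE 0.14, adjusted p = 0.0118), and Egr3 (0.85, SE 0.17, adjusted p = 0.0280) and Ier5l (0.70, SE 0.12, adjusted p = 0.0147) were above 0.

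Among 27 of 29 other bZIP partners that were tested, 1 rose and 11 fell on stiff gels in WT, and 4 rose and 11 fell in Cav1KO cells. Over all genes 22.1% rose and 26.3% fell in WT, and 27.9% rose and 28.2% fell in Cav1KO cells. Maf, a bZIP factor of the large MAF group, had 25.9 to 26.7 CPM in WT stiff, 83.6 to 84.4 in WT soft, 18.2 to 19.3 in Cav1KO stiff and 103.1 to 103.8 in Cav1KO soft libraries. It was thus higher on soft gels in each genotype (stiff minus soft -1.64, SE 0.08, adjusted p = 2.01e-05, and -2.40, SE 0.08, adjusted p = 2.99e-06). Atf1 rose on stiff gels in both (0.22, adjusted p = 0.0357, and 0.57, adjusted p = 0.000264). Cebpd, an acute-phase factor, differed most below 0 between genotypes (-1.24, SE 0.18, adjusted p = 0.00866), with 92.6 to 110.8 CPM in WT stiff, 149.5 to 189.1 in WT soft, 246.4 to 255.4 in Cav1KO stiff and 167.9 to 183.3 in Cav1KO soft libraries. With genotype 8 were higher and 7 lower in Cav1KO cells on stiff gels, beside 25% and 26.6% of all genes, and 10 and 8 on soft gels, beside 24.1% and 29.9%.

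Of 29 MAP kinases and upstream regulators tested, 9 rose and 1 fell on stiff gels in WT, where 22.1% of all genes rose and 26.3% fell, and 15 rose and 4 fell in Cav1KO cells, where 27.9% rose and 28.2% fell. Their medians were 0.18 and 0.24. Hras rose in both (0.67, SE 0.10, adjusted p = 0.000819, and 1.05, SE 0.10, adjusted p = 6.04e-05). Mapk3, which encodes ERK1, was the gene that fell in WT cells, from 254.1 to 278.8 CPM on soft to 132.3 to 146.4 CPM on stiff gels (-0.93, SE 0.08, adjusted p = 8.59e-05), and it also fell in Cav1KO cells (-0.50, SE 0.08, adjusted p = 0.00105). With genotype 5 were higher and 8 lower on stiff gels and 7 and 13 on soft gels in Cav1KO cells, where 25% and 24.1% of all genes were higher and 26.6% and 29.9% lower on the respective gels. Of 26 ERK feedback and target genes, 8 rose and 5 fell in WT and 9 rose and 5 fell in Cav1KO cells with stiffness, and 9 were higher and 12 lower in Cav1KO cells on stiff and 10 and 13 on soft gels. Ccnd1, the G1 cyclin, rose most in WT cells, from 197.1 to 218.7 CPM on soft to 482.7 to 495.4 CPM on stiff gels (1.23, SE 0.07, adjusted p = 3.42e-05). Its rise was smaller in Cav1KO cells (difference 0.78, SE 0.10, adjusted p = 0.00726).

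Serum response factor, the activator of Fos and Egr1 transcription, was itself higher on stiff gels. Srf had 115.7 to 121.9 CPM in WT stiff, 84.1 to 88.2 in WT soft, 80.7 to 81.2 in Cav1KO stiff and 65.5 to 68.9 in Cav1KO soft libraries, and it rose in WT (0.46, SE 0.07, adjusted p = 0.00107) and Cav1KO cells (0.27, SE 0.07, adjusted p = 0.0126). Its cofactor Elk1 fell in both (-0.55, adjusted p = 0.00111, and -0.24, adjusted p = 0.0442). Of the 6 genes of this group tested, 1 rose and 1 fell in WT cells and 1 rose and 2 fell in Cav1KO cells. Over all genes 22.1% rose and 26.3% fell in WT and 27.9% rose and 28.2% fell in Cav1KO cells. With 6 genes the counts are too few for a comparison with these shares. The other gene of this group that fell in Cav1KO cells was Mkl2, an actin-regulated cofactor (-1.01, SE 0.16, adjusted p = 0.000775).

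Genes commonly cited as AP-1 targets moved in both directions. Of 31 tested of 36, 11 rose and 13 fell on stiff gels in WT, beside 22.1% and 26.3% of all genes, and 13 rose and 12 fell in Cav1KO cells, beside 27.9% and 28.2%. Compared with WT, Cav1KO cells had lower levels of 19 on each gel, beside 26.6% of all genes on stiff and 29.9% on soft gels, and higher levels of 8 on stiff and 11 on soft gels, beside 25% and 24.1%. The collagenase Mmp13 had 0 to 0.114 CPM in WT stiff, where the reads were at or under the counting limit, 2.31 to 3.87 in WT soft, 3.23 to 4.53 in Cav1KO stiff and 32.2 to 32.5 in Cav1KO soft libraries. Mmp14, a membrane-bound metalloproteinase, had 59.9 to 80.0 CPM in WT stiff, 117.7 in both WT soft, 43.2 to 54.8 in Cav1KO stiff and 258.8 to 264.2 in Cav1KO soft libraries, and its fall on stiff gels was larger in Cav1KO cells (difference 1.64, SE 0.20, adjusted p = 0.00540). Both proteases were highest in Cav1KO soft libraries, where Jun was highest too. The cytokine Il6 differed most below 0 between genotypes (-2.59, SE 0.22, adjusted p = 0.00161), with 5.17 to 5.81 CPM in WT stiff, 13.9 to 15.4 in WT soft, 9.15 to 9.83 in Cav1KO stiff and 2.73 to 3.71 in Cav1KO soft libraries. Hmga1 rose on stiff gels in WT (0.93) and in Cav1KO cells (1.52, SE 0.10, adjusted p = 1.89e-05). Cav1KO cells had less Hmga1 on both gels (-1.83 on stiff and -2.43 on soft).

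Of 11 heat shock genes tested of 12, 9 rose on stiff gels in WT cells and the other 2 did not pass, and 7 rose and 2 fell in Cav1KO cells, with medians of 0.70 and 0.61. Over all genes 22.1% rose in WT, and 27.9% rose and 28.2% fell in Cav1KO cells. The mitochondrial chaperone Hspd1 rose in WT (1.06, SE 0.09, adjusted p = 7.14e-05) and Cav1KO cells (1.17, SE 0.09, adjusted p = 2.5e-05). Hspa1b, an inducible HSP70, had 51.0 to 56.5 CPM in WT stiff, 30.1 to 32.9 in WT soft, 11.1 to 12.7 in Cav1KO stiff and 16.3 to 16.5 in Cav1KO soft libraries, and its stiffness effect differed between genotypes (1.19, SE 0.15, adjusted p = 0.00644).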

How the data were processed

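RNA-seq was analysed from 8 libraries, 2 in each of 4 groups that the labels define. The authors used 500 ng of total RNA, poly(A) selection and a kit that does not mark strand, and sequenced single reads of 60 nt. The deposited signal is TMM-normalized CPM per gene. Per the labels the processing used GRCm38, CASAVA 1.8.2, cutadapt and RSEM 1.2.3; the filter on low genes is not given in the sources used here. RSEM gives estimated reads, which share ambiguous reads between genes. In each library 100% of the values were whole multiples of the smallest step (within 0.01 reads), and reads were recovered from it. All columns were mapped to samples.

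The 12494 genes that reached 1 CPM in 2 or more libraries entered limma 3.58.1 (R 4.3.3) as log2(CPM + 1), with all 4 groups in 1 fit and a mean-variance trend. P-values are two-sided and adjusted by Benjamini-Hochberg over those genes, with a threshold of 0.05. The study states no test for RNA-seq fold changes. Alternatives were other pseudocounts and filters, no trend, other scalings, a replicate block, leaving out each library, and edgeR 4.0.16 and DESeq2 1.42.0 on the recovered reads. The scripts were checked on simulated data.

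The members and the gene lists were chosen with earlier results of these data known, and some genes stand in more than 1 list. Lists are given by counts and medians, with no test of the list. Beyond the members, the genes named are those with the largest changes past the threshold in the stiffness effects and their difference, up to 2 in each direction and with a mean of at least 5 CPM, and the 3 genes most correlated with Fos and with Fosl1. Some genes that this rule names are not reported here. A second row under the symbol Map3k4 was left out. Coordinates and exon overlaps are from GENCODE M21. The variation between the libraries of a group exceeded counting error (chi-square per degree of freedom 3.49 to 18.1), so none was a copy of another.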

Additional observations from a re-analysis of the deposited data

Results flagged for a closer look

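For 3 of the 10 genes the stiffness effect differed between WT and Cav1KO cells by a test of the difference itself, the WT effect minus the Cav1KO effect on the log2 scale (limma, adjusted over all genes). For Atf3 the difference was -1.67 (adjusted p = 0.0221), since its fall on stiff gels was larger in WT cells. For Jund it was -0.66 (adjusted p = 0.0249), with a fall in WT cells and a change in Cav1KO cells that did not pass, and the antisense gene Gm11175, which shares 52.6% of Jund's exon bases, had a difference of -0.65 (adjusted p = 0.0324). For Ier3 it was -0.38 (adjusted p = 0.0373), with a rise on stiff gels in Cav1KO cells. Beside these, 6% of all genes tested had a difference below 0 that passed.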

How the results depend on the processing

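Over 18 alternatives and 5 comparisons, 827 of the members' values kept their direction and side of the threshold, 55 lost and 9 gained a call, and 9 turned sign. Each group has 2 libraries, so a group left with 1 is assumed to vary like the others. The low reads of Fos, Fosb and Atf3 limit precision, and the cause of the changes below was not tested.

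The values that turned sign were small in every case, none of them called in the reported fit. Under quantile normalization these were Jund in the Cav1KO stiffness effect (-0.06), Junb in the genotype difference (0.06) and Fosb in the genotype effect on soft gels (-0.02). With a library left out they were Fosl1 (-0.07 to 0.24, below 0 without WT soft replicate 1) and Junb (0.02 without WT stiff replicate 1, 0.03 without Cav1KO stiff replicate 2) in the genotype difference, Atf3 in the genotype effect on stiff gels (-0.48 to 0.16, above 0 without Cav1KO stiff replicate 2), and Fos (-0.25 to 0.04, above 0 without WT soft replicate 1) and Fosb (-0.08, without WT soft replicate 2) in the genotype effect on soft gels.

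The genotype difference depended most on the processing. Over all genes 559 differences above and 750 below 0 passed, which became 314 and 391 without the mean-variance trend, and edgeR called 361 above 0. Among the members DESeq2 called 1 and quantile normalization 2 above 0, and 1 was called below 0 without the trend. Leaving out single libraries gave 36 to 1747 genes above and 74 to 1689 below 0, the lowest without Cav1KO soft replicate 1 and the highest without Cav1KO stiff replicate 1, with 0 to 1 member above and 0 to 3 below. It gave 1707 to 3025 genes higher on stiff gels in WT cells (2763 with all libraries), the lowest without WT soft replicate 1, and 4 to 6 members lower on stiff gels in Cav1KO cells, the lowest without Cav1KO soft replicate 2.

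The share of higher among called genes moved from 49.7% to 57.4% in the Cav1KO stiffness effect under median centring and from 42.7% to 52.1% in the genotype difference under DESeq2, where leaving out single libraries gave 32.7% to 50.8%. The median over all genes lay between -0.11 and 0.06 under every scaling.

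Same-numbered libraries deviated together (correlation over 0.1) in 2 of 6 pairs of groups, with 0.42 between WT stiff and Cav1KO stiff, 0.14 between WT stiff and Cav1KO soft, -0.37 between WT stiff and WT soft and 0.06 between Cav1KO stiff and Cav1KO soft, so the numbers were not taken to pair the libraries. The fit with the replicate block called 2767 genes higher on stiff gels and 3213 lower in the WT comparison and changed no member's call. With the WT soft numbers crossed, an alternative chosen after seeing the data, it called 3299 and 3675 genes.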
